A study of Mus musculus with 6 samples.

Results

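The mRNAs of 34 splicing regulators were examined in hematopoietic stem cells (HSCs) that lack the ribosomal protein Rpl22. The genes were taken by name from the 34573 rows of the count table. They are the 20 hnRNP genes (including Hnrpdl and Hnrpll), the 11 Srsf genes that encode SR proteins, Tra2a and Tra2b, and Ptbp1. One pseudogene row was left out. The symbol Ptbp3 was not among the rows, but its older symbol Rod1 was, and its values are given apart from the 34. The cells were lineage-negative Sca-1+ c-Kit+ CD48-CD150+ HSCs sorted from the bone marrow of adult mice. There were 3 libraries from Rpl22-/- mice and 3 from Rpl22+/+ mice. The deletion is in the germline, so every cell of the animal lacked Rpl22 and the HSCs had also developed in an Rpl22-deficient marrow. The mice had been backcrossed to C57BL/6. Nothing in the labels says whether the libraries of a genotype came from separate animals, and the p-values measure only the spread between these libraries.

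SR proteins bind exons through an RNA recognition motif and recruit the splicing machinery through a domain rich in arginine and serine, which favors inclusion of the exon. hnRNPs coat nascent transcripts and often act in opposition, by blocking splice sites or looping out exons, and many also bind mature mRNA in the cytoplasm. The balance between both families shapes which isoforms a cell makes, and SRSF2 is among the splicing genes mutated in human myelodysplastic syndromes. Many of these genes also limit their own output by splicing their transcripts into forms that are destroyed by nonsense-mediated decay. Rpl22 is an RNA-binding protein itself. Counts per gene cannot show which isoforms were made, so the values below are total mRNA levels only.

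Of the 34 genes, Hnrnpul1 and Hnrnpa1 were higher in Rpl22-/- HSCs and Srsf7 was lower, in a test across all genes with an adjusted p under 0.05. The upstream sequences of these 3 genes are shown because they are the members that passed the test. Each is the 250 bases before the annotated start of the RefSeq transcript in assembly GRCm38.p6, 5′ to 3′ on the strand of the gene. Capitals mark matches on either strand to 8 short motifs, namely the TATA box (TATAAA), the CCAAT box (CCAAT), the GC box (GGGCGG), an ETS motif (CCGGAAG), an E-box (CACGTG), an NRF1 motif (GCATGCGC), a YY1 motif (AAGATGGC) and the letters TCGCGAGA.
Hnrnpa1, chr15:103240147-103240396, forward strand: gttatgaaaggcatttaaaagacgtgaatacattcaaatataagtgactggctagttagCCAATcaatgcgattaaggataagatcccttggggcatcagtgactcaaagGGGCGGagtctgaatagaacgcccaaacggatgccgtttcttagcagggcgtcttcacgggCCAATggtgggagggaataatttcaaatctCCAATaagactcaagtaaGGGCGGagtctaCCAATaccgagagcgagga
Hnrnpul1, chr7:25754760-25755009, reverse strand: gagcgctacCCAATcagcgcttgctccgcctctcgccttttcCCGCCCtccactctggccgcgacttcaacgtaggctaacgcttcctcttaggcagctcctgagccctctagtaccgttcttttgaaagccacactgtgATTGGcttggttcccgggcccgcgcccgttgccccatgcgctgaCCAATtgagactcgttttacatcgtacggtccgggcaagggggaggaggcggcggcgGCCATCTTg
Srsf7, chr17:80207306-80207555, reverse strand: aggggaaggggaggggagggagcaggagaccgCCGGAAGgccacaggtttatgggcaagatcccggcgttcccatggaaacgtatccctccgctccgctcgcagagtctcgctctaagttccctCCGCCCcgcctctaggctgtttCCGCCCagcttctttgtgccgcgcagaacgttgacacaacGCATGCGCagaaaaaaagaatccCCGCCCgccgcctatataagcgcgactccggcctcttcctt

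The Hnrnpa1 stretch held 4 CCAAT boxes and 2 GC boxes. That of Hnrnpul1 held 3 CCAAT boxes, 1 GC box and 1 YY1 motif. That of Srsf7 held 3 GC boxes, 1 ETS motif and 1 NRF1 motif, and no CCAAT box. A match is a match of letters only. Over windows of 300 bases, from 250 before to 50 after the start, 44 windows were found for 32 of the 34 genes (Hnrpll and Hnrnpul2 had none), and 32851 for all genes. A GC box stood in 84.1% of the members' windows and 35.7% of all windows, and a CCAAT box in 52.3% and 37.4%. The ETS motif stood in 22.7% of the members' windows and 8.86% of all, the E-box in 13.6% and 7.15%, the NRF1 motif in 6.82% and 2.71%, the YY1 motif in 4.55% and 2.75%, TCGCGAGA in 9.09% and 0.995%, and the TATA box in 9.09% and 13.6%. Matches of different motifs may overlap. Some genes had several windows that share bases, so the same site can count more than once in these shares. By gene, the GC box stood in 27 of the 32, the CCAAT box in 19 and the ETS motif in 6. The E-box stood in 6, the TATA box in 4, the NRF1 motif and TCGCGAGA in 3 each, and the YY1 motif in 2. Shares by gene were not computed over all genes. The members' windows were also richer in G and C, with a median GC content of 66.8% against 52.7% and a median of 28 CpG dinucleotides against 7, and the part of base composition in these shares was not tested.

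Reads counted on genes ran from 9321123 to 13385850 per library. Levels are given as CPM, the reads of a gene scaled to a common library size by the TMM method, and differences as log2 fold changes, Rpl22-/- minus Rpl22+/+, with the standard error (SE) of the edgeR quasi-likelihood test. Adjusted p-values are Benjamini-Hochberg values over the 14004 genes tested. Rpl22 itself had 35.0, 43.9 and 41.5 CPM in Rpl22-/- replicates 1, 2 and 3 and 529.3, 561.9 and 523.4 CPM in the Rpl22+/+ replicates, as the labels say. Transcripts that define HSCs were present in every library, and the 10 HSC markers summed to 2167 to 2375 CPM in Rpl22-/- libraries and 2354 to 2405 CPM in Rpl22+/+ libraries.

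All 34 genes had enough reads to be tested. The test called 2 of them higher (5.88%), beside 3.28% of all genes tested, and 1 lower (2.94%), beside 2.29% of all genes tested. All 3 Rpl22-/- libraries lay above all 3 Rpl22+/+ libraries for 4 members (11.8%), beside 13.3% of all genes, and below them for 5 members (14.7%), beside 13.6% of all genes. These shares are near the background, so the calls of this edgeR fit did not set the 34 genes together apart from other genes. Another test, DESeq2, called 4 of the 34 higher and 3 lower, beside 4.53% and 3.01% of all genes tested. With library size alone as the scaling, the calls over all genes were 369 higher and 481 lower in place of 459 and 321. Of the 34 members, 20 had a positive and 14 a negative log2 fold change, with a median of 0.04, while the median over all genes was -0.01.

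**Figure D1:**
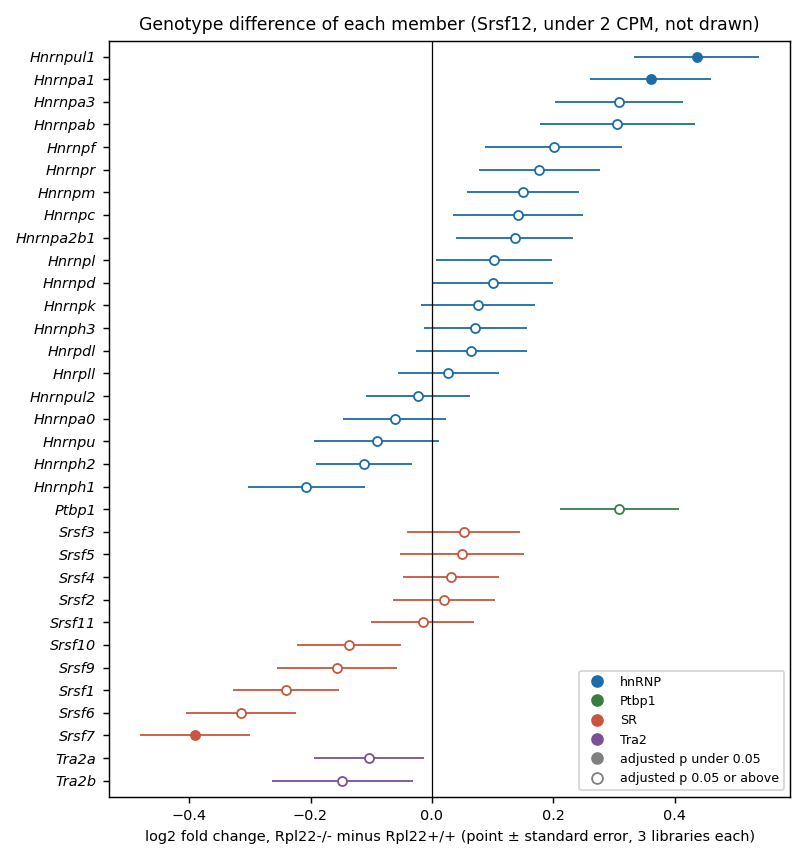
Log2 fold change (Rpl22-/- minus Rpl22+/+) of 33 members on the horizontal axis, each with its SE from 3 libraries per genotype, grouped and colored by family. Filled points mark the 3 genes with an adjusted p under 0.05, Hnrnpul1 and Hnrnpa1 on the right and Srsf7 on the left, and Srsf12 is not drawn because it had fewer than 2 CPM in every library.

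The hnRNP A/B proteins are abundant RNA binders, and HNRNPA1 is the classic antagonist of SR proteins at splice sites. Hnrnpa1 (ENSMUSG00000046434.16, chr15:103240432-103246692 of GRCm38, forward strand) had 1544.6, 1831.9 and 1844.1 CPM in Rpl22-/- replicates 1, 2 and 3, and 1368.3, 1397.4 and 1300.5 CPM in Rpl22+/+ replicates 1, 2 and 3. The genotypes did not overlap, and Rpl22-/- replicate 1 lay closest to the Rpl22+/+ libraries. Hnrnpa1 rose by 0.36 on the log2 scale (SE 0.10, adjusted p = 0.0466 by edgeR). Its 12499 to 24276 reads per library make counting error small beside the spread between libraries. Hnrnpa1 has 3 near-identical copies of at least 300 bases among the other annotated genes, which cover 39.2% of its transcript. Those copies held 345 reads over the 6 libraries where Hnrnpa1 held 113826, and reads that align to more than one place were left out of the counts.

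Hnrnpa3, the close relative of Hnrnpa1, had 1210.1, 1495.6 and 1435.3 CPM in Rpl22-/- libraries and 1142.4, 1186.0 and 1015.0 CPM in Rpl22+/+ libraries. The groups did not overlap, but the log2 fold change of 0.31 (SE 0.105) did not pass the test (adjusted p = 0.0947 by edgeR). It passed with DESeq2 (adjusted p = 0.028) and with the GC trend removed (0.45, adjusted p = 0.0314), and its adjusted p ran from 0.0137 to 0.306 over the alternatives. Hnrnpa3 also has 14 near-identical copies, 11 of them in the table with 458 reads against its own 91792. Hnrnpab, which binds A- and U-rich RNA, had 516.6, 774.3 and 666.3 CPM against 554.0, 565.8 and 463.4 CPM. Here Rpl22-/- replicate 1 lay among the Rpl22+/+ libraries, and the log2 fold change of 0.31 (SE 0.128) did not pass (adjusted p = 0.169). Of the exon bases of Hnrnpab, 29.1% are shared with Phykpl on the opposite strand, and the strand setting of the counts is not stated. Hnrnpa2b1, which sorts and binds many mRNAs and is the second most abundant member per length, had 1669.7, 1865.3 and 1926.8 CPM against 1690.7, 1675.2 and 1602.4 CPM, a log2 fold change of 0.14 (adjusted p = 0.434). Hnrnpa0, which regulates the stability of AU-rich mRNAs, stood at -0.06, Hnrnpd (AUF1), which promotes their decay, at 0.10, and its relative Hnrpdl at 0.07, and none of the 3 passed the test.

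Hnrnpul1, a relative of the nuclear scaffold protein HNRNPU that also acts in the response to DNA damage, had the most positive log2 fold change of the 34 genes. It lies at chr7:25721165-25754757 on the reverse strand (ENSMUSG00000040725.13). Its level was 242.6, 323.6 and 315.1 CPM in Rpl22-/- replicates 1, 2 and 3, and 213.6, 221.9 and 215.8 CPM in Rpl22+/+ replicates. The Rpl22+/+ libraries were tightly grouped, and Rpl22-/- replicates 2 and 3 stood well above replicate 1. Hnrnpul1 rose by 0.44 on the log2 scale (SE 0.104, adjusted p = 0.0246 by edgeR), on 2074 to 4148 reads per library. No other annotated gene shares its exons and no near-identical copy was found. Its relatives did not pass the test. Hnrnpu had 842.2, 1051.0 and 957.6 CPM against 1029.2, 1078.6 and 928.7 CPM, a log2 fold change of -0.09 (adjusted p = 0.655). Hnrnpul2 had 349.6, 388.4 and 396.5 CPM against 382.5, 391.2 and 379.0 CPM, a log2 fold change of -0.02 (adjusted p = 0.907). Whether Hnrnpul1 differed from these relatives was not tested.

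The hnRNP H/F proteins bind runs of G and often promote use of a nearby splice site. Hnrnph1 had 951.3, 788.0 and 901.1 CPM in Rpl22-/- libraries and 973.5, 1041.2 and 1033.1 CPM in Rpl22+/+ libraries. All Rpl22-/- libraries were lower, but the log2 fold change of -0.21 (SE 0.097) did not pass the test (adjusted p = 0.221). With the GC trend of each library removed it was -0.02 (adjusted p = 0.929), and its adjusted p ran from 0.0828 to 0.965 over the alternatives. The X-linked Hnrnph2 also did not overlap, with 142.6, 145.7 and 148.1 CPM against 158.3, 162.5 and 150.7 CPM, and its log2 fold change of -0.11 did not pass (adjusted p = 0.436). Hnrnpf stood at 0.20 (adjusted p = 0.310) and Hnrnph3 at 0.07 (adjusted p = 0.674), both with overlapping groups.

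The other hnRNP genes bind other RNA elements. HNRNPC binds runs of U, HNRNPK runs of C, HNRNPL and HNRNPLL repeats of CA, and HNRNPM G- and U-rich stretches. Their log2 fold changes were 0.14 for Hnrnpc, 0.08 for Hnrnpk, 0.10 for Hnrnpl, 0.03 for Hnrpll, 0.15 for Hnrnpm and 0.18 for Hnrnpr. None passed the test, and in each the libraries of the genotypes overlapped. Hnrpll, which controls the splicing of the surface phosphatase CD45 in lymphocytes, was among the steadiest, at 75.8, 81.2 and 79.8 CPM against 80.3, 75.9 and 76.1 CPM. Over the 20 hnRNP genes, 15 had a positive and 5 a negative log2 fold change, with a median of 0.10. By edgeR 2 were called higher (10%) and 0 lower, beside 3.28% and 2.29% of all genes tested. At an unadjusted p under 0.05 there were 4 higher and 1 lower, beside 11.6% and 10.7% of all genes tested. DESeq2 called 3 hnRNP genes higher (Hnrnpa1, Hnrnpa3 and Hnrnpul1) and 0 lower, beside 4.53% and 3.01% of all genes.

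PTBP1 binds pyrimidine tracts and represses nearby exons. Ptbp1 had 529.1, 679.1 and 609.5 CPM in Rpl22-/- libraries and 492.0, 491.4 and 483.9 CPM in Rpl22+/+ libraries. The Rpl22+/+ libraries were nearly equal, all below the Rpl22-/- libraries, and the log2 fold change of 0.31 (SE 0.098) did not pass the test (adjusted p = 0.0754 by edgeR). It passed with DESeq2 (adjusted p = 0.0241), and its adjusted p ran from 0.00868 to 0.216 over the alternatives. Genes on the opposite strand share 20.7% of the exon bases of Ptbp1. Its paralog Rod1 (Ptbp3), a regulator of differentiation expressed mainly in blood cells, had 389.6, 447.1 and 439.3 CPM against 398.1, 438.1 and 431.6 CPM, a log2 fold change of 0.01 (adjusted p = 0.966).

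**Figure D2:**
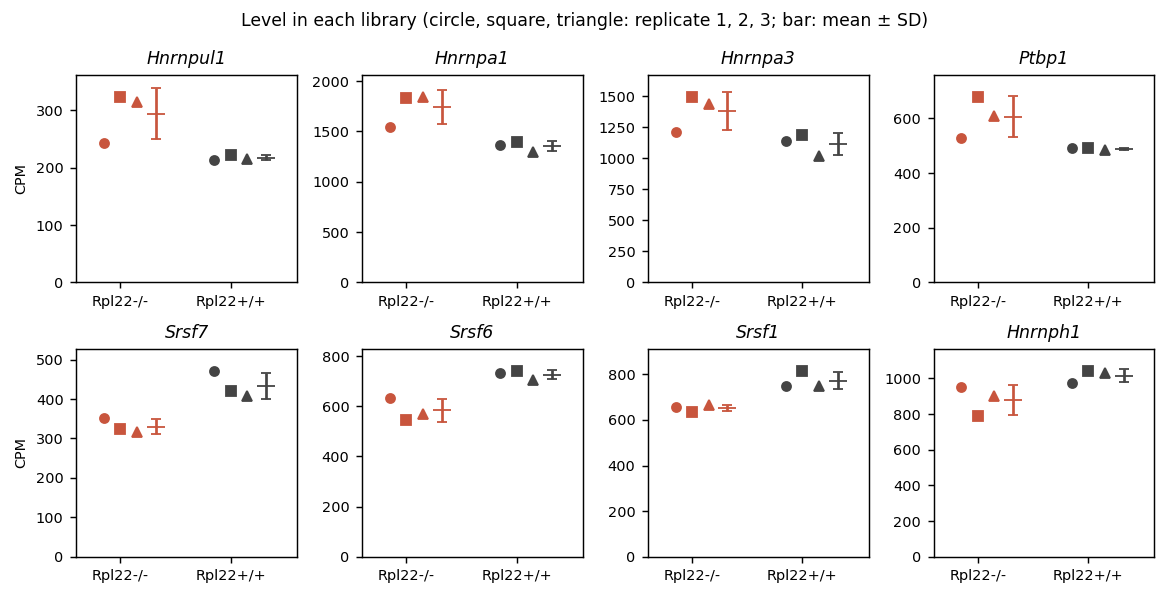
CPM in each library for the 8 members with all libraries of one genotype above the other and the smallest p-values, with the mean and SD of 3 libraries beside the points. Each vertical axis starts at 0. Rpl22-/- replicate 1 (circle) is the Rpl22-/- library nearest to the Rpl22+/+ libraries in 7 of the panels, the exception being Srsf1.

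Among the SR genes, Srsf7 was lower in Rpl22-/- HSCs. SRSF7 carries a zinc knuckle beside its RNA recognition motif and moves between nucleus and cytoplasm as an adaptor for mRNA export. Srsf7 (ENSMUSG00000024097.11, chr17:80200080-80207307, reverse strand) had 352.1, 322.9 and 315.8 CPM in Rpl22-/- replicates 1, 2 and 3, and 470.8, 421.3 and 406.7 CPM in Rpl22+/+ replicates. Every Rpl22-/- library was below every Rpl22+/+ library. Srsf7 fell by 0.39 on the log2 scale (SE 0.0904, adjusted p = 0.0219 by edgeR), on 3879 to 6129 reads per library. No gene overlaps its exons and no near-identical copy was found.

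Srsf6, an SR protein that favors exon inclusion, had 633.7, 547.2 and 570.3 CPM in Rpl22-/- libraries and 732.8, 740.4 and 704.9 CPM in Rpl22+/+ libraries. The groups did not overlap, and its log2 fold change of -0.31 (SE 0.0904) lay just past the threshold (adjusted p = 0.0535 by edgeR). It passed with DESeq2 (adjusted p = 0.0073) and limma-voom (adjusted p = 0.0465), and its adjusted p ran from 0.0073 to 0.189 over the alternatives. Srsf1, the prototype of the family, had 656.6, 636.6 and 664.7 CPM against 749.7, 814.4 and 749.7 CPM, with no overlap. Its log2 fold change of -0.24 (SE 0.087) did not pass by edgeR (adjusted p = 0.112). With the GC trend removed it was -0.12 (adjusted p = 0.471), with DESeq2 it passed (adjusted p = 0.0378), and its adjusted p ran from 0.0378 to 0.557 over the alternatives.

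The remaining SR genes did not pass the test. Srsf3, the smallest SR protein and the closest relative of Srsf7, had 507.2, 593.6 and 611.3 CPM against 556.8, 555.8 and 538.7 CPM, a log2 fold change of 0.05 (adjusted p = 0.792). Srsf5 had 882.1, 772.9 and 994.3 CPM against 813.3, 887.1 and 860.2 CPM, a log2 fold change of 0.05 (adjusted p = 0.823). Srsf4 had 150.7, 154.6 and 151.7 CPM against 143.9, 153.9 and 149.5 CPM, a log2 fold change of 0.03 (adjusted p = 0.858). In these 3 genes the libraries of the genotypes overlapped. Srsf2 stood at 519.1, 512.6 and 545.8 CPM against 519.4, 532.5 and 503.6 CPM, a log2 fold change of 0.02 (SE 0.0844, adjusted p = 0.917). Srsf9, Srsf10 and Srsf11 had log2 fold changes of -0.16, -0.14 and -0.02. Srsf12 was at the edge of detection, with 13, 2 and 8 reads in Rpl22-/- libraries and 13, 8 and 15 in Rpl22+/+ libraries, so its log2 fold change of -0.78 (SE 0.576, adjusted p = 0.457) rests on few reads. Over the 11 SR genes, 4 had a positive and 7 a negative log2 fold change, with a median of -0.14, and 0 were called higher and 1 lower. At an unadjusted p under 0.05 there were 0 higher and 3 lower. DESeq2 called 0 higher and 3 lower (Srsf1, Srsf6 and Srsf7). The shares over all genes are those given for the hnRNP genes. The median of -0.14 includes Srsf12. With at least 10 counts required in every sample, which leaves Srsf12 out, 4 were positive and 6 negative, with a median of -0.077. With the GC trend removed the SR median was -0.028.

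Tra2a and Tra2b are SR-like proteins that activate exons through GAA-rich enhancers. Tra2a had 150.0, 148.3 and 169.5 CPM in Rpl22-/- libraries and 174.4, 176.7 and 151.1 CPM in Rpl22+/+ libraries, a log2 fold change of -0.10 (adjusted p = 0.545). Tra2b had 242.3, 301.1 and 284.9 CPM against 359.4, 299.1 and 258.4 CPM, a log2 fold change of -0.15 (adjusted p = 0.486). The libraries overlapped in both.

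The calls changed when single libraries were left out. Without Rpl22-/- replicate 1, the adjusted p by edgeR was 0.00542 for Hnrnpa1, 0.000608 for Hnrnpul1 and 0.00704 for Srsf7, and 5 members were called higher and 2 lower. Without Rpl22-/- replicate 2, Rpl22-/- replicate 3, Rpl22+/+ replicate 1 or Rpl22+/+ replicate 2, none of the 34 was called. Without Rpl22+/+ replicate 3, Srsf7 alone was called (adjusted p = 0.0482). With 2 libraries on one side the number of calls over all genes also fell, from 780 to between 127 and 370, except without Rpl22-/- replicate 1, where it was 1720. The directions did not change, and without each library in turn the log2 fold change ran from 0.32 to 0.44 for Hnrnpa1, from 0.36 to 0.56 for Hnrnpul1 and from -0.44 to -0.33 for Srsf7. With the trend of each library on GC content removed, Hnrnpul1 (adjusted p = 0.0566) and Srsf7 (adjusted p = 0.0906) were no longer called, while Hnrnpa3 was gained. With the trend on gene length removed, Hnrnpa1 was no longer called (adjusted p = 0.0541). Over all 17 alternatives the adjusted p ran from 0.00247 to 0.163 for Hnrnpa1, from 0.000275 to 0.114 for Hnrnpul1 and from 0.00125 to 0.14 for Srsf7.

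The Rpl22-/- libraries were not alike in their hnRNP mRNAs. Rpl22-/- replicate 1 was the lowest of the 3 Rpl22-/- libraries for 16 of the 20 hnRNP genes (80%), beside 34.4% of all genes tested. The 20 hnRNP genes summed to 11496.5, 13387.6 and 13062.5 CPM in Rpl22-/- replicates 1, 2 and 3, and to 11558.6, 12034.4 and 10993.6 CPM in the Rpl22+/+ replicates. Replicate 1 lay within the Rpl22+/+ range and the other two above it. The 11 SR genes summed to 4295.1, 4133.9 and 4476.1 CPM against 4642.7, 4746.8 and 4517.9 CPM, with all Rpl22-/- libraries lower. This lay mainly in Srsf1 (mean 652.6 CPM in Rpl22-/- against 771.3 in Rpl22+/+), Srsf6 (583.7 against 726.0) and Srsf7 (330.2 against 432.9). Srsf2, Srsf3, Srsf4 and Srsf5 had slightly positive log2 fold changes, so the SR sum does not show a drop across the family. The hnRNP sum was 2.68, 3.24 and 2.92 times the SR sum in Rpl22-/- libraries and 2.49, 2.54 and 2.43 times in Rpl22+/+ libraries, so the Rpl22-/- libraries lay above the Rpl22+/+ libraries in this ratio, which is given as a description with no test. The coefficient of variation between libraries was larger in Rpl22-/- than in Rpl22+/+ HSCs for 26 of the 34 members (76.5%), beside 62.1% of all genes, with medians of 8.81% and 4.96% over the members.

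**Figure D3:**
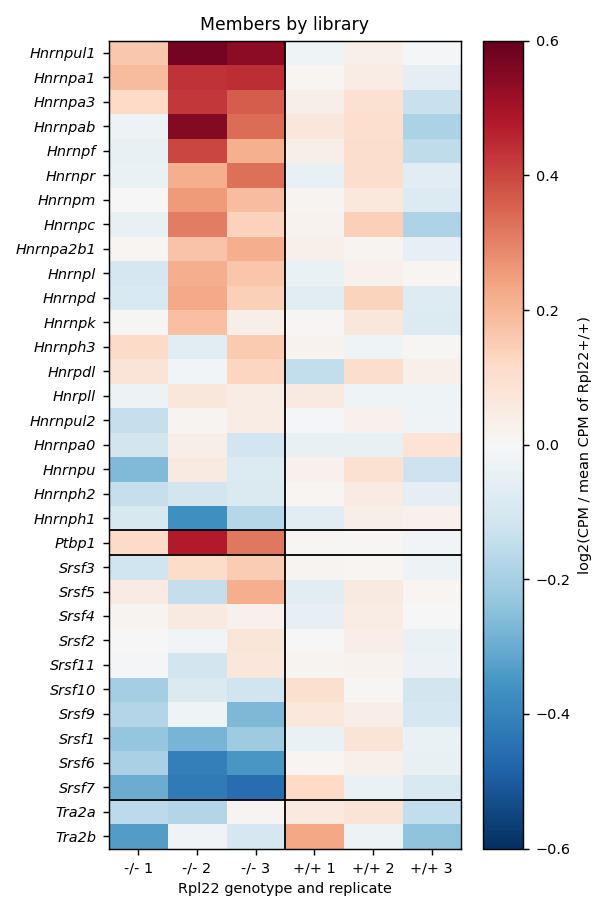
Log2 ratio of the CPM of each library to the mean CPM of the Rpl22+/+ libraries for 33 members (rows, grouped as hnRNP, Ptbp1, SR and Tra2 from the top) in the 6 libraries (columns), with red for higher and blue for lower. Of the hnRNP rows, those from Hnrnpul1 to Hnrnpf at the top are redder in Rpl22-/- replicates 2 and 3 than in replicate 1, Hnrnph1 and Hnrnph2 at the bottom are blue in the 3 Rpl22-/- libraries, and Srsf1, Srsf6 and Srsf7 are blue in the 3 Rpl22-/- libraries.

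A list of 20 cell cycle genes was also lowest in replicate 1 of the Rpl22-/- libraries, with sums of 3908, 5283 and 5097 CPM in Rpl22-/- replicates 1, 2 and 3 and 4431, 4532 and 4412 CPM in Rpl22+/+ replicates. For this list, unlike the hnRNP sum, replicate 1 lay below every Rpl22+/+ library. Of these genes 15 had a positive and 5 a negative log2 fold change. By edgeR 0 passed the test, beside 3.28% called higher and 2.29% lower of all genes tested. Without Rpl22-/- replicate 1, edgeR called 5 of the 20 higher and 0 lower, beside 965 and 755 of 14243 genes tested. DESeq2 on all libraries called 1 of the 20 higher. The part of cell cycle state in the hnRNP levels was not tested. In bulk RNA, more cells of a kind and more RNA per cell cannot be told apart.

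**Figure D4:**
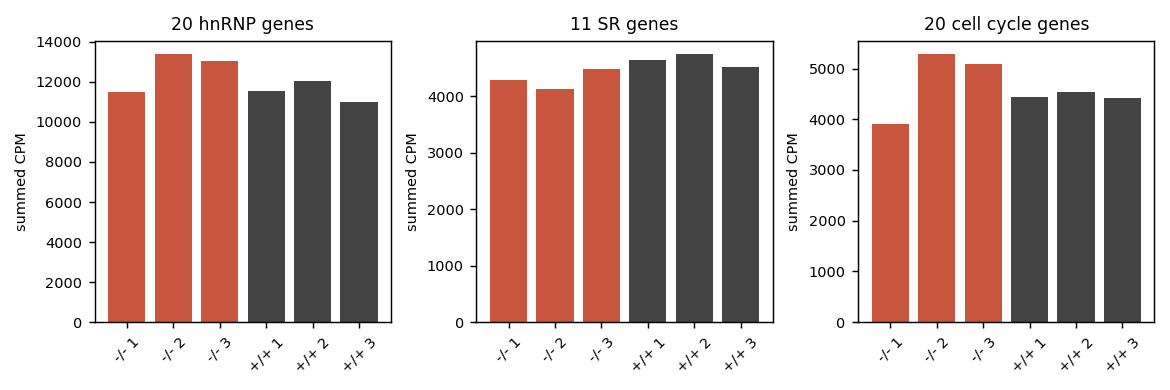
Summed CPM of the 20 hnRNP genes, the 11 SR genes and 20 cell cycle genes in each of the 6 libraries, on axes that start at 0. The hnRNP and cell cycle sums are both lower in Rpl22-/- replicate 1 than in replicates 2 and 3, and the SR sums of the Rpl22-/- libraries are all below those of the Rpl22+/+ libraries.

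Levels of different genes were compared as CPM per kb of exon, averaged over the genotypes. Hnrnpa1 was the most abundant at 490.9 CPM per kb, followed by Hnrnpa2b1 at 264.0, Hnrnpa3 at 231.2, Srsf5 at 217.7 and Hnrnpab at 212.1 CPM per kb. Hnrnpa1 was above the others in each genotype by more than the SD of its libraries (551.9 ± 53.8 in Rpl22-/- and 429.9 ± 15.8 in Rpl22+/+ HSCs, SD, n = 3), whereas the order of Hnrnpa3, Srsf5 and Hnrnpab was not clear of their spread (in Rpl22-/- HSCs 255.8 ± 27.9, 221.4 ± 27.8 and 234.5 ± 46.5 CPM per kb, SD, n = 3). In Rpl22+/+ HSCs they stood at 206.5 ± 16.5, 214.0 ± 9.37 and 189.7 ± 20.1 CPM per kb (SD, n = 3), so Srsf5 came before Hnrnpa3 there. Srsf7 stood at 107.5 and Hnrnpul1 at 29.5 CPM per kb. The lowest were Hnrnpr at 11.1, Hnrpll at 6.69 and Srsf12 at 0.264 CPM per kb. The exon length used is the union of all annotated exons, so genes with many long, rarely used exons are placed too low.

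**Figure D5:**
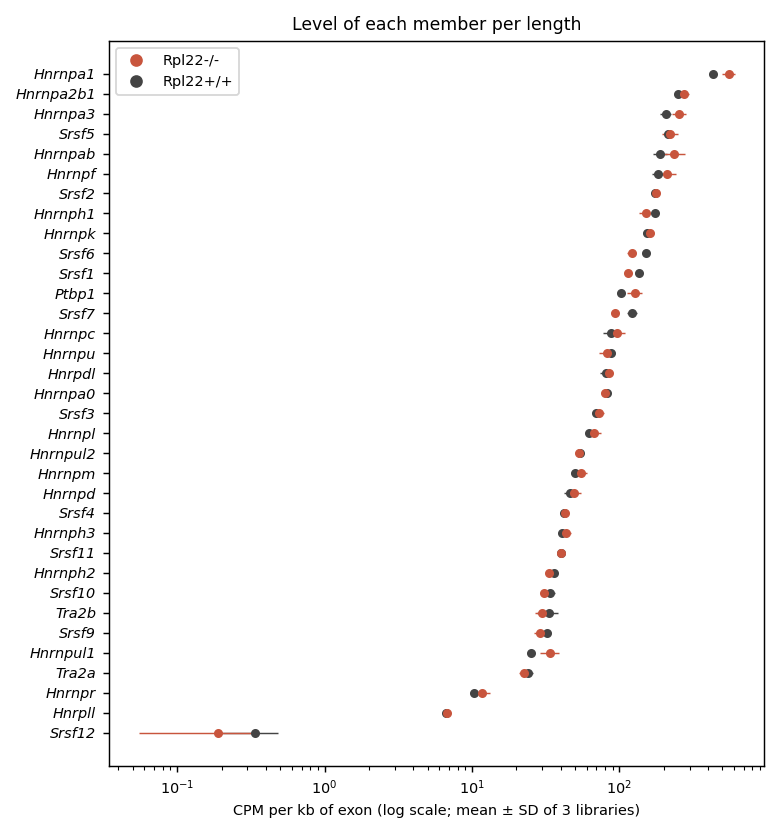
CPM per kb of exon (horizontal axis, log scale) of the 34 members in Rpl22-/- (red) and Rpl22+/+ (grey) HSCs, as mean and SD of 3 libraries, ordered by the mean over both genotypes. Hnrnpa1 is highest at 490.9 CPM per kb and Srsf12 lowest at 0.264 CPM per kb, and within most rows the genotypes lie close together.

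The annotation lists a transcript subject to nonsense-mediated decay for 22 of the 34 members (64.7%), beside 29.6% of the protein-coding genes tested. The share was 9 of 11 among SR genes (81.8%) and 10 of 20 among hnRNP genes (50%). Srsf7 has 1 such transcript among 8, Hnrnpa1 has 2 among 5, and Hnrnpul1 has 0 among 5. Members also have more annotated transcripts, with a median of 7.5 against 5. A read on such a transcript counts toward the gene here, so a lower count cannot be assigned to one isoform.

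SR proteins are switched on and off by phosphorylation. Of 13 genes for kinases, phosphatases and the nuclear import receptor (Tnpo3) of SR proteins, 12 were tested. The test called 0 higher and 1 lower, beside 3.28% and 2.29% of all genes tested. The one was Ppp1cb, a catalytic subunit of protein phosphatase 1, with 187.2, 179.6 and 179.8 CPM in Rpl22-/- libraries and 245.8, 228.5 and 227.5 CPM in Rpl22+/+ libraries. It fell by 0.36 on the log2 scale (SE 0.0809, adjusted p = 0.0197 by edgeR). Ppp1ca, another catalytic subunit, had 303.0, 398.2 and 343.0 CPM against 276.8, 286.0 and 274.5 CPM, a log2 fold change of 0.32 (adjusted p = 0.0704). The kinase gene Srpk2 stood at -0.18 (adjusted p = 0.230). The list had 5 positive and 7 negative log2 fold changes and a median of -0.08. Its count lower became 0 without Rpl22-/- replicate 3 or any one Rpl22+/+ library, and with the length or GC trend removed.

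Of 79 other splicing factor genes, 73 were tested, with 2 called higher and 2 lower, beside 3.28% and 2.29% of all genes tested. The list had 38 positive and 35 negative log2 fold changes (median 0.04). Raver1, a partner of PTBP1, had 184.3, 250.3 and 243.2 CPM against 172.4, 178.7 and 157.2 CPM and rose by 0.41 (adjusted p = 0.0371 by edgeR). Luc7l, which encodes a factor of the U1 particle, had 208.1, 165.4 and 207.0 CPM against 273.2, 242.8 and 236.2 CPM and fell by 0.37 (adjusted p = 0.0422). Matr3, a nuclear matrix protein that also binds pyrimidine tracts, had 329.8, 330.7 and 319.2 CPM against 407.4, 422.8 and 382.7 CPM and fell by 0.31 (adjusted p = 0.0433). In all 3 the genotypes did not overlap. Dazap1, an RNA binder related to the hnRNPs, was the fourth and stood at 0.37 (adjusted p = 0.0484 by edgeR). It had 117.5, 155.6 and 148.8 CPM against 102.0, 117.5 and 105.8 CPM, and its genotypes overlapped. Dazap1 is named here because it completes the count, after its values were seen. The counts of this list became 0 higher and 0 lower without Rpl22-/- replicate 2 or any one Rpl22+/+ library, 0 and 1 without Rpl22-/- replicate 3, and 7 and 3 without Rpl22-/- replicate 1, and its count lower became 0 with the length or GC trend removed.

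Markers of other cells were also measured. The B cell gene Ms4a1 and the T cell gene Cd3e had 0 reads in every library, and Cd79a, Pax5, Ebf1, Cd3d, Cd3g and Cd2 were under 1 CPM. Cd79b, part of the B cell receptor complex, had 27.6, 24.6 and 25.7 CPM in Rpl22-/- libraries and 22.1, 20.7 and 20.9 CPM in Rpl22+/+ libraries, with no overlap and a log2 fold change of 0.29 that did not pass the test (adjusted p = 0.166 by edgeR). The T and NK list (6 genes) summed to 44.7 to 52.6 CPM in Rpl22-/- and 35.9 to 42.3 CPM in Rpl22+/+ libraries. Of the 2 tested, 0 were called by edgeR, and Nkg7 had an unadjusted p under 0.05. The 8 neutrophil genes summed to 96.5 to 211.2 and 66.1 to 103.8 CPM, with 1 called higher (Camp), and the highest sum was in Rpl22-/- replicate 2. Camp had only 11, 31 and 47 reads in Rpl22-/- libraries and 10, 2 and 3 in Rpl22+/+ libraries. With at least 10 counts required in every sample, 3 neutrophil genes were tested and 0 called. The 6 megakaryocyte genes summed to 972.0 to 1235.6 and 701.3 to 922.9 CPM, with 4 called higher, of which Pf4 overlapped between the genotypes. Leaving out each library in turn gave 1 to 3 called higher. Of 16 immediate early genes tested, 7 were called higher, and their list summed to 795.6 to 1059.4 and 543.6 to 705.2 CPM. For this list, leaving out each library gave 2 to 11 called higher. Beside the counts of these lists, 3.28% of all genes tested were called higher and 2.29% lower. The HSC list had 0 called higher and 1 lower (Fgd5), the erythroid list 0 and 1 (Car1), the nuclear RNA list 0 and 1 (Meg3), and the monocyte and progenitor lists 0 and 0. Car1 overlapped between the genotypes. Without Rpl22-/- replicate 3, Rpl22+/+ replicate 1 or Rpl22+/+ replicate 2, the HSC and erythroid lists had 0 called. The part of these lists in the splicing results was not tested.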

How the data were processed

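RNA from sorted HSCs was made into polyA-selected libraries (TruSeq), 3 per genotype. The authors aligned the reads to mm10 with TopHat2 (2.1.1 per the labels) and deposited raw read counts per gene from HTSeq. The annotation and strand setting are not given in the sources used here. HTSeq's unassigned rows (58.6% to 60.9% of each library) entered neither the library sizes nor the tests.

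Results for some marker genes are not reported here. The 34 genes and all lists were chosen with earlier results of these data known. Counts were filtered (filterByExpr, minimum count 10), TMM-scaled and compared by the quasi-likelihood test of edgeR 4.0.16 (R 4.3.3), with no covariate, after the code was tested on simulated data. DESeq2 1.42.0 and limma-voom 3.58.1 were alternatives, beside other scalings, filters, left-out libraries, a replicate block, and removal of length or GC trends (lowess, span 0.3). Precision rests on 3 libraries per genotype.

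Genes named by rule were every called member, the 3 highest and 3 lowest log2 fold changes among hnRNP and among SR genes, every Tra2 and Ptbp gene, the 5 highest levels per kb, and the 3 smallest p-values of each other splicing list. Other members are given for completeness, and were added after their values were seen.

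Positions, lengths and transcript classes are from GENCODE vM21 (GRCm38, the same assembly as mm10), where 29006 of 34573 symbols matched directly and 1830 through an older symbol. Promoters are from RefSeq (GRCm38.p6). Copies were found with BLAST 2.17.0, by searching the longest coding transcript of each member against all transcripts of GENCODE vM21. Copies that are not annotated were therefore not covered. A copy needed an identity of at least 98% over at least 300 bases, a length set after shorter matches had been seen to fall in unrelated genes. Figures used matplotlib 3.10.9.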

Additional observations from a re-analysis of the deposited data

How the results depend on the processing

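Over 17 alternatives, 518 of 577 log2 fold changes of members kept their direction and side of the threshold, 19 lost and 17 gained a call, and 23 changed sign. The main counts of 2 members higher and 1 lower became 4 and 3 with DESeq2 and 5 and 2 with no filter on low counts. Calls over all genes also rose, from 459 higher and 321 lower to 635 and 422 with DESeq2. With no filter they were 823 and 599 of 20635 genes. The members' count lower became 2 with library size alone and with limma-voom, and 0 with the GC trend removed. Over all genes the counts lower were 481, 321 and 144 in these settings. The members' count higher became 1 with the gene length trend removed, beside 383 over all genes. With both trends removed and the block, Hnrnpa3, Hnrnpr (adjusted p = 0.0286 by edgeR) and Hnrnpul1 were called higher and Srsf7 lower. Hnrnpa1 was not called there, and over all genes 371 were called higher and 167 lower. Leaving out each library gave 0 to 5 members called higher and 0 to 2 lower. The cause was not tested. The median of the members ran from -0.004 with library size alone, where the median of all genes was -0.051, to 0.088.

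Pairing by replicate number was not seen, with same-number correlations of deviations of -0.103, 0.0549 and 0.0448. Those of unlike numbers ran from -0.171 to 0.132. With 3 libraries per genotype the check cannot exclude that the samples were paired. With the replicate block, 1 member was higher (Hnrnpul1) and 1 lower (Srsf7), 904 genes were called in place of 780, and Hnrnpa1 was not called (0.356, adjusted p = 0.0644 by edgeR).

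Signs changed only for members that did not pass the test, among them Tra2b, Srsf10 and Hnrnph2, which stood at -0.148, -0.137 and -0.112. Srsf2 became -0.024 with library size alone, -0.007 without Rpl22-/- replicate 3, -0.001 without Rpl22+/+ replicate 3, -0.010 with the length trend removed and -0.030 with both trends removed and the block. Hnrpll and Srsf4 became -0.017 and -0.013 with library size alone. With the GC trend removed, Hnrnph2 became 0.005, Hnrnpu 0.031, Srsf11 0.031 and Srsf4 -0.020. With the length trend removed, Hnrnpul2 became 0.029 and Srsf11 0.048. With both removed and the block, Hnrnpu became 0.083, Hnrnpul2 0.013, Srsf10 0.003, Srsf11 0.080, Srsf4 -0.019 and Tra2b 0.050. Without Rpl22-/- replicate 1 Hnrnpul2 became 0.035, without replicate 2 Srsf11 0.030, without replicate 3 Srsf5 -0.044, and without Rpl22+/+ replicate 1 Hnrpdl -0.003. Leaving out each library in turn, Hnrnpul2 ran from -0.058 to 0.035, Hnrpdl from -0.003 to 0.12, Srsf11 from -0.059 to 0.030, Srsf2 from -0.007 to 0.04 and Srsf5 from -0.044 to 0.137.

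The hnRNP median stayed positive (0.055 to 0.194) and the SR median negative (-0.190 to -0.028) under every alternative. The SR median shrank to -0.028 with the GC trend removed and -0.030 with both trends removed and the block. It was -0.077 with the filter that leaves out Srsf12. That of Tra2a and Tra2b became 0.016 with both trends removed and the block.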
